A study of Mus musculus with 6 samples.

Results

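The genes through which cells take up iron were examined in mouse kidney: the ligand transferrin (Trf), its receptors TfR1 (Tfrc) and Tfr2, the receptor partner Hfe, the metalloreductases Steap2, Steap3 and Steap4, and the importers Slc11a2, Slc39a14 and Slc39a8. These 10 genes were chosen by symbol for their role in uptake, with earlier results of these data known, from the 24422 genes counted. All 10 had enough counts to be tested among the 15171 genes tested. Poly-A RNA of whole C57BL/6 kidney was sequenced at postnatal day 60, on an iron-sufficient diet of 220 ppm, in 2 groups of 3 libraries. The control group was wild type. The TfR1KO;KspCre group had the genotype Tfr1f/f;KspCre: exons 3 and 4 of Tfrc carry loxP sites, and KspCre, a Cre recombinase under control of the Ksp-cadherin (Cdh16) promoter, removes them in distal segments. Proximal tubule, vessels and interstitium are not targeted by this Cre. Elsewhere the study also calls floxed littermates without Cre wild type, and the labels do not say whether these controls carried floxed alleles. The libraries are called control 1 to 3 and knockout 1 to 3, after their titles. The comparison asks whether the other routes of iron entry differ in a kidney whose distal nephron has lost TfR1.

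Iron circulates bound to transferrin. TfR1 at the cell surface binds the loaded protein and carries it into endosomes, where acid releases ferric iron, a Steap reductase converts it to ferrous iron, and Slc11a2 (DMT1) moves it into the cytosol. Iron that is not bound to transferrin can enter through Slc11a2 and through the Zip transporters Slc39a14 and Slc39a8, which also carry zinc and manganese. Hfe and Tfr2 bind TfR1 or transferrin and act in the liver to set hepcidin, the hormone of systemic iron. In iron-poor cells, iron regulatory proteins bind hairpins in the 3′ untranslated region of Tfrc mRNA and protect it from decay, and bind the same kind of hairpin in the 5′ untranslated region of ferritin mRNA and block its translation.

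Tfrc lies on mm9 chr16:32609006-32632880, plus strand, and its longest annotated transcript has 19 exons and 4890 bases. The deleted stretch is shown because it fixes what the Tfrc count can and cannot report. Exon 3, at chr16:32614652-32614853, and exon 4, at chr16:32615279-32615480, are both coding and of 202 bases each, given here from 5′ to 3′ on the gene's strand in lower case throughout.
Tfrc exon 3: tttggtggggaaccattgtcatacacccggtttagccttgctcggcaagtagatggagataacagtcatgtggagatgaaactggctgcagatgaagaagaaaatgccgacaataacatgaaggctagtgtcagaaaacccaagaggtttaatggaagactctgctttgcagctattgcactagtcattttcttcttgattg
Tfrc exon 4: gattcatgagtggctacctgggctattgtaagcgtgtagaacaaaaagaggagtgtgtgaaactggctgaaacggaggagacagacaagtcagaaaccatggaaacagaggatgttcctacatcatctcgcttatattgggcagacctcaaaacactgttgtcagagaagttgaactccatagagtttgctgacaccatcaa
Together they hold 404 bases, which leaves a remainder of 2 on division by 3, so that joining exon 2 to exon 5 changes the reading frame. They make up 17.6% of the 2292 coding bases but only 8.26% of the transcript. Counts were deposited per gene and not per exon, and any transcript present without exons 3 and 4 still adds to the count of Tfrc. The stability of such a transcript was not tested. The gene count is therefore no check of the deletion.

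The hairpins of Tfrc were located by a pattern: a C, 5 bases, the loop CAGTGN, and 5 bases that pair with the first 5 (G-T pairs allowed), 17 bases in all, on the transcript strand of annotated untranslated regions. The 3′ untranslated region of Tfrc, 2458 bases long, held 4 matches, starting at its bases 889, 1268, 1333 and 1380. They are shown with 6 bases on each side and with the loop in capitals, because they are the sequence through which iron is known to act on this mRNA.
Tfrc match at chr16:32631311-32631327: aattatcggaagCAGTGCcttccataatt
Tfrc match at chr16:32631690-32631706: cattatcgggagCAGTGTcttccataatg
Tfrc match at chr16:32631755-32631771: ctatatcggagaCAGTGAtctccatatgt
Tfrc match at chr16:32631802-32631818: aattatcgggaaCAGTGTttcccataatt
Fth1 match (ferritin heavy chain, 5′ untranslated region) at chr19:10057228-10057244: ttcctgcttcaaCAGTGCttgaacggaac
The pattern was found in the 3′ untranslated region of 125 of 20007 genes (0.625%) and in the 5′ untranslated region of 33 of 19945 genes (0.165%). The other 9 uptake genes had no match, which says only that these letters were not in their annotated untranslated regions. It does not show that they lack such hairpins, which are called iron-responsive elements. The study measured Slc11a2 mRNA separately as DMT1-ire and DMT1-non-ire, and counts per gene do not separate these forms. Of 50 other genes of iron handling, Fth1, Ftl1 and Slc40a1 each had 1 match, in the 5′ untranslated region.

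Total counts were between 11501053 and 21001341 per library, lowest in knockout 3. The first principal component of log2 CPM (counts scaled to the library total, adjusted by TMM) held 69.4% of the variance. Along it the controls lay between -72.58 and -53.15, knockouts 2 and 3 at 88.61 and 82.13, and knockout 1 at 9.671, between the groups. Control 2 was the only library with Y-linked transcripts (3980 counts over Ddx3y, Eif2s3y, Kdm5d and Uty, against 3 to 5 in the other libraries), and its count of Xist was 52, against 10458 to 23845 elsewhere. Fits without control 2, and with the ratio of Xist to Y-linked counts as a covariate, are given with the alternatives. Proximal tubule markers also moved with the group. The summed level of 7 proximal tubule markers was 9888 to 13235 CPM in controls and 1788 to 5334 CPM in knockouts, with 6 of 7 called, all lower. That of 5 thick ascending limb markers overlapped between groups, at 3980 to 9711 and 867 to 6200 CPM. Distal convoluted tubule markers, from a segment this Cre targets, summed to 1940 to 3056 CPM in controls and to 2281, 1248 and 152 CPM in knockouts 1 to 3, with 1 of 4 called, lower. Proliferation markers summed to 5.57 to 22.2 CPM in controls and 47.5 to 73.7 CPM in knockouts (5 of 6 called, all higher), and T cell markers to 3.58 to 5.94 and 11.4 to 40.2 CPM (3 of 4 called, all higher). Of the principal cell, intercalated cell and podocyte markers, 4 in each list, 0 were called by edgeR's quasi-likelihood test, with 0, 0 and 1 at an unadjusted p under 0.05. Whole kidney RNA cannot tell fewer cells of a type from less RNA per cell. The study describes its sequenced models by mice and sets them against wild type littermates, but the labels do not say which libraries share a litter.

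None of the uptake genes passed the threshold. An adjusted p under 0.05 in edgeR's quasi-likelihood test was reached by 0 of 10 members, against 17.2% of all genes tested, and the lowest adjusted p among them was 0.0664, for Steap4. Without adjustment, 7 of 10 had a p under 0.05, against 38.6% of all genes, and the 3 control and 3 knockout libraries did not overlap for 4 of 10, against 46.0%. The fitted value was higher in knockouts for 4 members (Trf, Tfr2, Hfe and Steap4) and lower for 6, with a median log2 fold change of -0.35, against 0.02 over all genes tested. Levels are CPM after TMM scaling, means carry the SD of 3 libraries, and fold changes are knockout over control with their standard error.

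**Figure D1:**
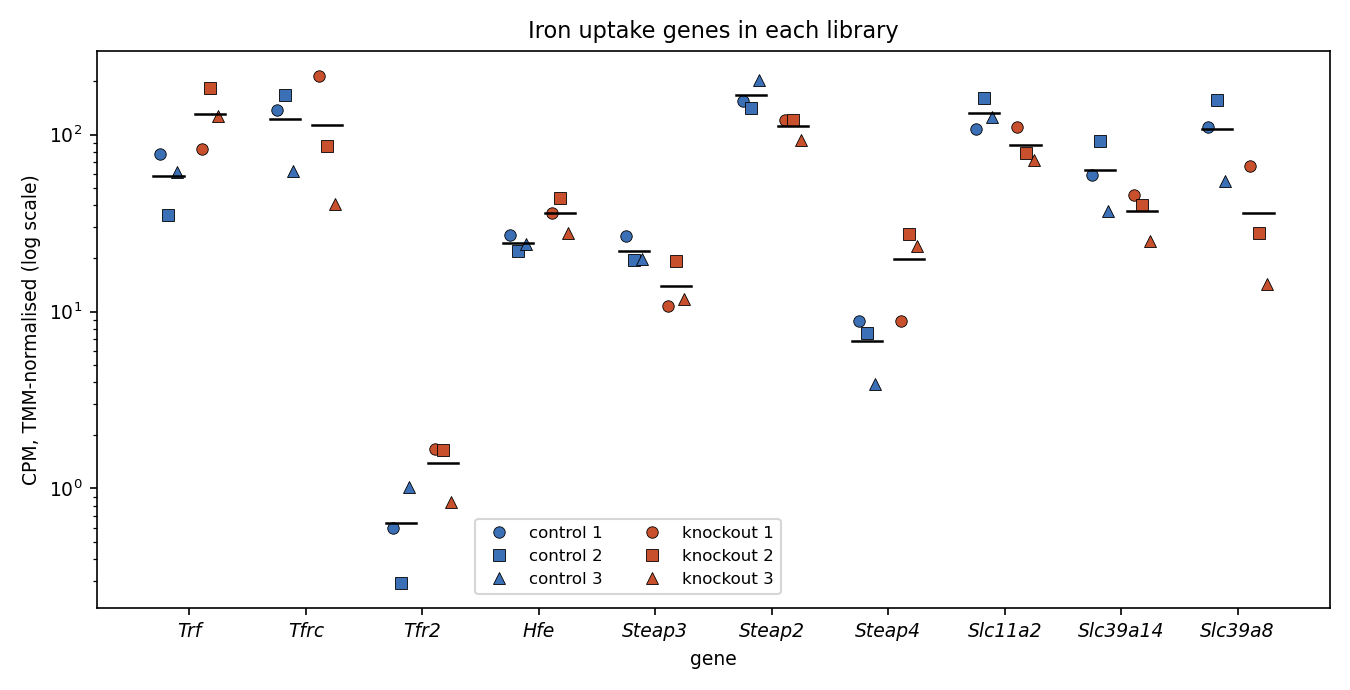
Level of each uptake gene (x axis) in each library, in TMM-normalised CPM on a log scale (y axis); blue symbols are the 3 controls, orange symbols the 3 knockouts, the symbol shape gives the replicate number and black lines are group means. Tfrc spans 61.95 to 167.9 CPM in controls and 40.60 to 214.4 CPM in knockouts, whereas the knockouts lie above all controls for Trf and Hfe and below them for Steap2 and Steap3.

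Trf encodes transferrin, the carrier that loads TfR1. It was at 77.5, 35.0 and 61.6 CPM in controls 1 to 3 and at 82.9, 184 and 128 CPM in knockouts 1 to 3. All knockouts lay above all controls, but knockout 1 exceeded control 1 by little, and control 2 was the lowest library. The mean was 58.0 ± 21.5 CPM in controls and 132 ± 50.6 CPM in knockouts, a log2 fold change of 1.18 (SE 0.38) with a 95% interval of 0.29 to 2.07 and an adjusted p of 0.0679 in edgeR's quasi-likelihood test. Transferrin in plasma comes mainly from the liver. Summed hepatocyte markers (Alb, Apoa1, Ahsg, Serpinc1 and Fgb) were at 11.6, 12.2 and 91.2 CPM in controls and at 17.9, 15.9 and 9.04 CPM in knockouts. Their part in the level of Trf was not tested. The annotation lists 2 overlapping genes named Trf, on the minus strand around chr9:103106331-103132774, which share 2108 exon bases (63.7% of the main gene). How such reads were counted is not given in the sources used here, and the level of Trf is uncertain for that reason.

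Tfrc, the gene deleted in the distal nephron, was at 138, 168 and 61.95 CPM in controls and at 214.4, 85.96 and 40.60 CPM in knockouts. The highest and the lowest of the 6 libraries were thus both labelled TfR1KO;KspCre. The ratio of the highest to the lowest library was 2.71 within controls and 5.28 within knockouts, the widest spread of any member within the knockouts. Group means were 123 ± 54.7 and 114 ± 90.1 CPM, with a log2 fold change of -0.11 (SE 0.62), an interval of -1.57 to 1.35 and an adjusted p of 0.911 in edgeR's quasi-likelihood test. That interval holds both a loss and a gain of more than 2-fold. The direction turned on single libraries: the log2 fold change was -0.96 without knockout 1, 0.17 without control 2, 0.06 without knockout 2 and 0.29 without knockout 3. In raw counts, Tfrc had 2783, 2856 and 1032 in controls and 4368, 1713 and 530 in knockouts, and counting error does not limit these values.

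Tfr2, the homologue of TfR1 that senses loaded transferrin in liver and erythroid cells, was the scarcest member. It had 12, 5 and 17 counts in controls and 34, 33 and 11 in knockouts, which gave 0.60, 0.29 and 1.02 CPM against 1.67, 1.66 and 0.84 CPM. Knockouts 1 and 2 lay above all controls, and knockout 3 lay between controls 1 and 3. The exact Poisson 95% interval covers counting error only. It was 9.9 to 27.2 for the 17 counts of control 3 and 22.7 to 46.3 for the 33 counts of knockout 2. Those intervals overlap, but they are on counts not scaled to library size, and their overlap is no test of a difference. The log2 fold change was 1.13 (SE 0.53), with an interval of -0.12 to 2.39 and an adjusted p of 0.162 in edgeR's quasi-likelihood test. A requirement of at least 10 counts in every library would leave Tfr2 untested because of control 2.

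Hfe, which binds TfR1 at the site where transferrin binds, had the smallest spread within controls of all members. It was at 27.0, 22.04 and 24.1 CPM in controls (24.4 ± 2.47) and at 36.1, 43.7 and 28.0 CPM in knockouts (35.9 ± 7.85). The knockouts were above the controls, although knockout 3 stood only just above control 1. The log2 fold change was 0.56 (SE 0.19), with an interval of 0.10 to 1.02 and an adjusted p of 0.0809 in edgeR's quasi-likelihood test. It stayed between 0.39 and 0.71 when any library was left out.

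The 3 Steap reductases, which reduce ferric iron and copper, did not share a direction. Steap3, the endosomal ferrireductase of the transferrin cycle in erythroid precursors, was at 26.9, 19.5 and 19.8 CPM in controls and at 10.8, 19.3 and 11.8 CPM in knockouts. Every knockout was below every control, but knockout 2 stood only just below control 2. The log2 fold change was -0.66 (SE 0.27), with an interval of -1.30 to -0.01 and an adjusted p of 0.125 in edgeR's quasi-likelihood test. Steap2, the most abundant of the 3 per length of exon, was at 155, 141 and 203 CPM in controls and at 121, 120 and 92.8 CPM in knockouts. The groups did not overlap, knockouts 1 and 2 nearly coincided, and the log2 fold change was -0.58 (SE 0.20; interval -1.04 to -0.12; adjusted p 0.0768 in the same test).

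Steap4, a reductase known to be induced by inflammatory cytokines, went the other way. It was at 8.86, 7.58 and 3.90 CPM in controls and at 8.78, 27.5 and 23.4 CPM in knockouts. Knockout 1 lay inside the control range, just below control 1, while knockouts 2 and 3 stood far above the highest control. The mean was 6.78 ± 2.57 against 19.9 ± 9.83 CPM, with a log2 fold change of 1.55 (SE 0.49), an interval of 0.39 to 2.70 and an adjusted p of 0.0664 in edgeR's quasi-likelihood test. Without knockout 1 it was 1.90 with an adjusted p of 0.0101 in that test, and without any other single library it was between 1.24 and 1.77 with adjusted p of 0.111 to 0.172. Summed macrophage markers (Cd68, Adgre1, Csf1r, Itgam and Cd14) were at 127, 132 and 113 CPM in controls and at 175, 467 and 174 CPM in knockouts, and fibroblast markers (Col1a1, Pdgfrb, Dcn and Lum) were at 238, 166 and 138 against 349, 1543 and 1014 CPM. In edgeR's quasi-likelihood test 4 of the 5 macrophage markers and 1 of the 4 fibroblast markers were called, all higher. Like Steap4 and Trf, both sums were highest in knockout 2, and their part in those levels was not tested.

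The 3 importers all had lower fitted values in knockouts, and their groups overlapped. Slc11a2, which exports ferrous iron from endosomes and takes it up at the apical membrane of tubules, was at 108, 161 and 126 CPM in controls and at 111, 78.3 and 71.6 CPM in knockouts. Knockout 1 stood above control 1, and the other knockouts stood below all controls. The log2 fold change was -0.60 (SE 0.23), with an interval of -1.14 to -0.06 and an adjusted p of 0.1003 in edgeR's quasi-likelihood test. An unrelated gene model, Gm5475, overlaps 402 of its exon bases (6.3%) on the opposite strand of chr15:100218329-100255503, and the strand setting of the counting is not given in the sources used here.

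Slc39a14 (ZIP14), the main importer of non-transferrin iron in liver, was at 59.4, 92.2 and 37.1 CPM in controls and at 45.6, 39.8 and 25.2 CPM in knockouts. Knockouts 1 and 2 lay within the control range. The log2 fold change was -0.77 (SE 0.36), with an interval of -1.62 to 0.09 and an adjusted p of 0.163 in edgeR's quasi-likelihood test. It was -0.40 without control 2 and -1.05 without control 3. Slc39a8 (ZIP8) is its closest relative. It was at 110, 156 and 54.6 CPM in controls and at 66.5, 27.7 and 14.3 CPM in knockouts. Only knockout 1 overlapped the controls, lying above control 3. Means were 107 ± 51.0 and 36.2 ± 27.1 CPM, with a log2 fold change of -1.56 (SE 0.60), an interval of -2.99 to -0.13 and an adjusted p of 0.106 in edgeR's quasi-likelihood test.

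Slc39a8 and Slc39a14 kept the order of Tfrc among the libraries, with control 2 above control 1 above control 3, and knockout 1 above knockout 2 above knockout 3. The summed thick ascending limb markers (Umod, Slc12a1, Cldn16, Cldn10 and Kcnj1) were also lowest, among controls, in control 3 (3980 CPM, against 9711 and 8864) and highest, among knockouts, in knockout 1 (6200 CPM, against 867 and 1181), although knockout 3 stood above knockout 2. The knockout order of Tfrc was also that of the sums for proximal tubule (5334, 1975 and 1788 CPM in knockouts 1 to 3), distal convoluted tubule (2281, 1248 and 152 CPM) and principal cells (1379, 787 and 255 CPM). Among controls those sums were in other orders than Tfrc. Of the 5 thick ascending limb markers 0 were called by edgeR's quasi-likelihood test, with 1 at an unadjusted p under 0.05. The part of these markers in the levels of the uptake genes was not tested.

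**Figure D2:**
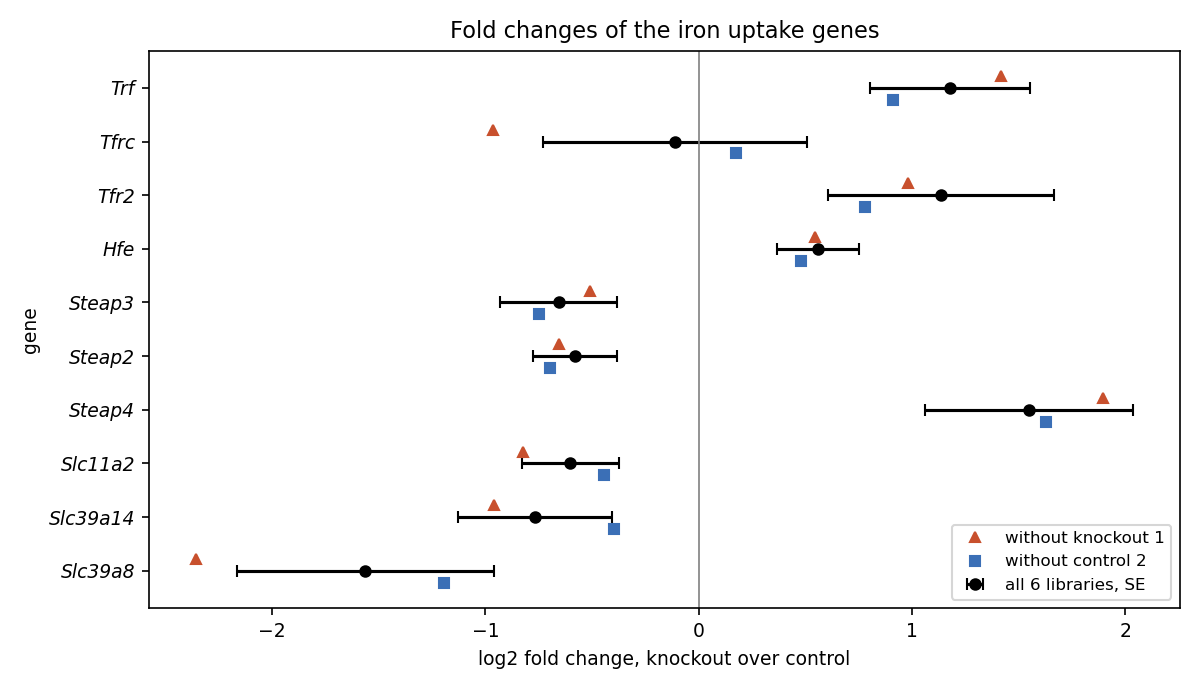
Log2 fold change of each uptake gene, knockout over control, from all 6 libraries (black points, bars are 1 SE) and from fits without knockout 1 (orange triangles) or without control 2 (blue squares). Tfrc moves from -0.96 to 0.17 between those fits, while the other 9 genes keep their side of 0.

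The calls depended on knockout 1. Without it, edgeR's quasi-likelihood test called 4 of 10 members, against 34.4% of all genes: Slc39a8 (log2 fold change -2.36, adjusted p 0.0172), Slc11a2 (-0.82, 0.0242), Steap4 (1.90, 0.0101) and Trf (1.42, 0.0229). DESeq2's Wald test on all 6 libraries also called 4 of 10 (Slc39a8, Steap2, Steap4 and Trf), against 29.3% of all genes. Scaling by library size alone called 3 of 10 (Steap4, Trf and Hfe), against 24.0%, and moved the median over all genes tested from 0.02 to 0.29 on the log2 scale. Over the fits that each left out 1 library, the log2 fold change ran from -2.36 to -1.19 for Slc39a8, from -0.82 to -0.44 for Slc11a2, from -0.97 to -0.51 for Steap3 and from -0.70 to -0.42 for Steap2. It ran from 0.86 to 1.42 for Trf and from 0.78 to 1.62 for Tfr2. Under the other alternatives, 0 members were called, with 2 to 7 at an unadjusted p under 0.05, against 27.4% to 39.1% of all genes. In the fits that left out a control, took the replicate block or took the Xist to Y covariate, 0 of all genes were called as well. Without control 2, 3 of 10 members had an unadjusted p under 0.05, against 27.4% of all genes, and the lowest adjusted p was 0.13.

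Levels were compared between genes per kilobase of exon (RPKM, from the TMM-scaled CPM and the union of annotated exons). In controls the order was Slc11a2 (20.8 ± 4.27 RPKM), Tfrc (19.8 ± 8.84), Trf (17.5 ± 6.49), Slc39a8 (14.0 ± 6.65), Steap2 (13.7 ± 2.67), Hfe (6.83 ± 0.69), Slc39a14 (5.96 ± 2.63), Steap3 (3.86 ± 0.73), Steap4 (2.16 ± 0.82) and Tfr2 (0.22 ± 0.12). The ranges of neighbours overlapped, except between Steap2 and Hfe, between Steap3 and Steap4, and between Steap4 and Tfr2. This order depends on the length used, because the union of exons exceeds the longest transcript unevenly. The 2 lengths were 7664 and 3533 bases for Slc39a8, 10552 and 4926 for Slc39a14, and 3140 and 3140 for Steap4. The place of Trf in this order is uncertain as well, because of the exon bases it shares with the second gene of that name. Tfr2 was far below all other members. In knockouts Trf, with the same doubt, stood highest at 39.7 ± 15.3 RPKM, ahead of Tfrc at 18.4 ± 14.6 and Slc11a2 at 13.7 ± 3.29, and Slc39a8 stood seventh at 4.72 ± 3.54.

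Knockout 1 lay inside the control range for 4 of 10 members (Slc11a2, Slc39a14, Slc39a8 and Steap4), as did 35.6% of all genes. Knockout 2 did so for 2 members (21.3% of all genes) and knockout 3 for 1 member (19.7%). Control 2, the library with Y-linked counts, was the highest control for Tfrc, Slc11a2, Slc39a14 and Slc39a8 and the lowest for Trf, Tfr2, Hfe, Steap2 and Steap3, so that it was an extreme control for 9 of 10 members. Over all genes it was the highest control for 33.2% and the lowest for 34.2%.

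**Figure D3:**
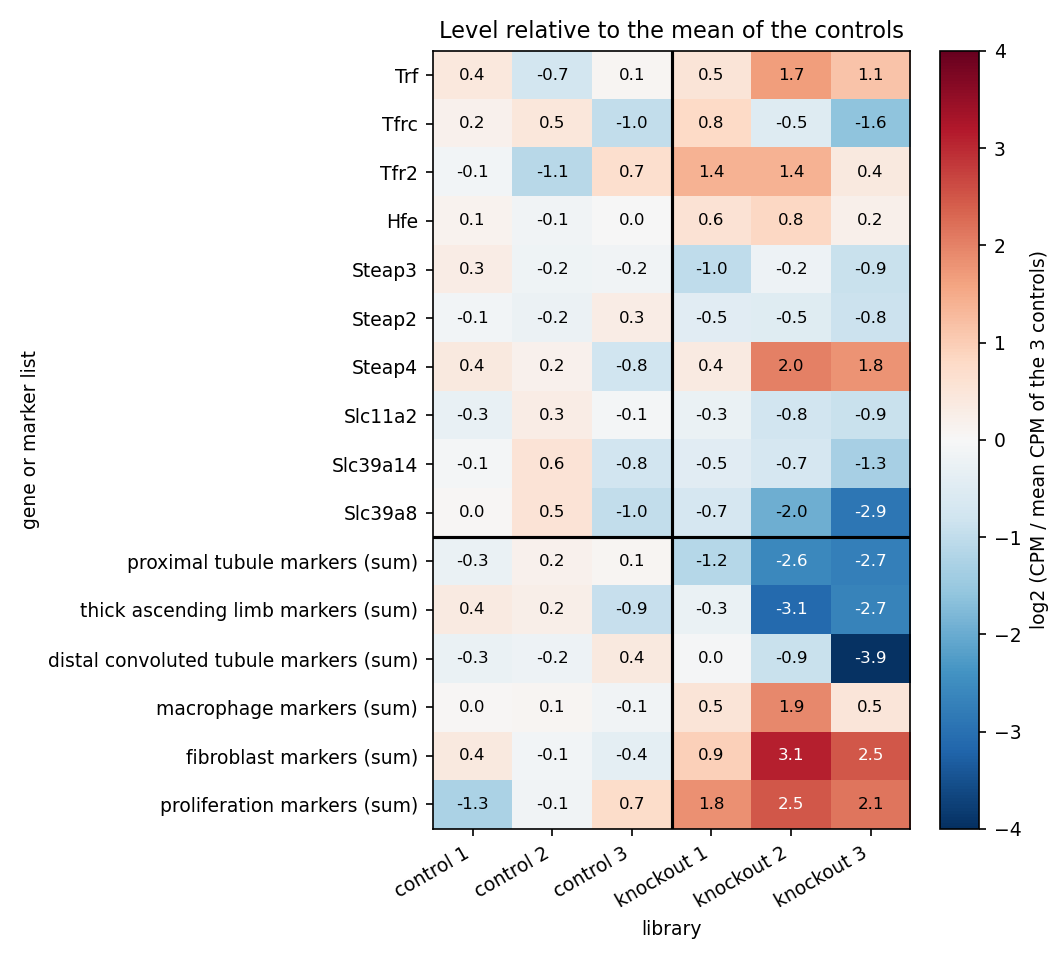
Log2 ratio of the CPM in each library (columns) to the mean CPM of the 3 controls, for the 10 uptake genes and for 6 summed marker lists (rows); red is above and blue below that mean. Knockout 1 lies nearer to the controls than knockouts 2 and 3 do for the proximal tubule, thick ascending limb and fibroblast sums and for Trf, Steap4 and Slc39a8.

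Across the 6 libraries, log2 CPM of Slc39a8 and Slc39a14 had a Pearson r of 0.929 and that of Slc11a2 and Trf an r of -0.952. Tfrc had an r of 0.797 with Slc39a8, of 0.785 with Slc39a14 and of -0.457 with Trf. These coefficients describe 6 libraries that share the group difference and the marker levels given above. Among the 11337 tested genes whose average log2 CPM was 3 or more, the 5 whose log2 CPM followed Tfrc most closely were Nol6 (r = 0.998), Chmp3 (0.987), Eya3 (0.984), Dpy19l3 (0.977) and Fam43a (0.977). Nol6 moved along with Tfrc over a far smaller range, from 47.0 CPM in knockout 3 to 61.5 CPM in knockout 1. Fam43a ranged more widely, from 16.2 CPM in knockout 3 to 58.6 CPM in knockout 1, and had no call either (log2 fold change -0.38, SE 0.49, adjusted p 0.591 in edgeR's quasi-likelihood test).

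Other iron genes were listed by function, 50 in all, of which 48 were tested and 12 (25.0%, against 17.2% of all genes) were called in edgeR's quasi-likelihood test (5 higher and 7 lower). Of the 48, 18 (37.5%) had an unadjusted p under 0.05, a share near the 38.6% of all genes, and their median log2 fold change was -0.19, against 0.02 over all genes. Hamp (hepcidin) and Hfe2 (hemojuvelin) were not tested, with 0 to 5 and 0 to 18 counts per library.

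Of 11 genes for carriers other than transferrin and their receptors, 5 were called (45.5%, against 17.2% of all genes), 3 lower and 2 higher, and the fitted values of all 11 were lower for 6 and higher for 5. The endocytic receptors megalin (Lrp2) and cubilin (Cubn), which take up filtered proteins including transferrin in the proximal tubule, fell. Lrp2 went from 2392, 3028 and 2694 CPM in controls to 899, 365 and 247 CPM in knockouts (log2 fold change -2.42, SE 0.52, adjusted p 0.0326 in edgeR's quasi-likelihood test), and Cubn from 577, 679 and 656 to 225, 100.3 and 61.7 CPM (-2.30, SE 0.47, adjusted p 0.0316). Both genes are also among the 7 proximal tubule markers, of which 6 were called, all lower. Slc46a1, a folate and heme transporter, fell by 1.07 on the log2 scale (adjusted p 0.0443 in the same test). Lcn2, the siderophore-binding lipocalin that tubules make after injury, rose in all knockouts, from 6.97, 3.64 and 6.18 CPM to 142, 293 and 341 CPM (log2 fold change 5.53, SE 0.45, adjusted p 0.0271). Cd163, the hemoglobin scavenger receptor of macrophages, was at 1.84, 0.65 and 0.96 against 1.96, 19.9 and 8.27 CPM and was just past the threshold (3.11, SE 0.86, adjusted p 0.0496).

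Of 7 genes of receptor trafficking and endocytosis, 1 was called (14.3%, against 17.2% of all genes). Exoc6, the exocyst subunit whose loss impairs recycling of transferrin in mouse reticulocytes, fell by 0.90 on the log2 scale (SE 0.22, adjusted p 0.0412 in edgeR's quasi-likelihood test), from 55.3, 77.8 and 61.1 CPM to 42.1, 36.4 and 25.7 CPM. The clathrin and adaptor genes had small fitted values, from -0.18 (Cltc) to 0.02 (Ap2m1).

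Of 6 reductase and export genes, 2 were called (33.3%, against 17.2% of all genes). Cp (ceruloplasmin, a ferroxidase) rose by 1.48 on the log2 scale (SE 0.38, adjusted p 0.0436 in edgeR's quasi-likelihood test) and the heme exporter Flvcr1 by 1.43 (SE 0.27, adjusted p 0.0303). Ferroportin (Slc40a1), the iron exporter, was at 77.4, 68.2 and 95.8 CPM in controls and at 87.9, 109.5 and 42.4 CPM in knockouts, with a log2 fold change of -0.01 (SE 0.34). Among 5 storage genes and chaperones, Ncoa4, which delivers ferritin for degradation, fell by 0.78 (SE 0.21, adjusted p 0.0468), while Fth1 (-0.71, SE 0.36) and Ftl1 (-0.30, SE 0.32) were not called.

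Of 9 regulators tested, 1 was called (11.1%, against 17.2% of all genes), namely Aco1 (iron regulatory protein 1). It was at 449, 532 and 394 CPM in controls and at 274, 169 and 131 CPM in knockouts (log2 fold change -1.26, SE 0.30, adjusted p 0.0384 in edgeR's quasi-likelihood test). Ireb2 (iron regulatory protein 2), which binds the same hairpins, had a log2 fold change of -0.43 (SE 0.19, adjusted p 0.135). Of 5 mitochondrial and endosomal transfer genes, 0 were called by this test, with 1 at an unadjusted p under 0.05. In the last group of 5, 2 were called (40.0%, against 17.2% of all genes). The zinc transporter Slc39a5 fell by 1.88 on the log2 scale (SE 0.50, adjusted p 0.0467 in the same test). Slc11a1, the phagosomal paralogue of Slc11a2 in macrophages, rose by 2.82 (SE 0.55, adjusted p 0.0305). Slc11a1 was at 1.84 to 3.18 CPM in controls and at 6.82, 27.7 and 15.2 CPM in knockouts.

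The listed genes that passed were led, by size of difference, by Lcn2, Cd163, Slc11a1, Lrp2 and Cubn. All 12 calls were lost when any control or knockout 3 was left out, and Lcn2 alone remained without knockout 2. Calls over all genes went from 2612 to 0 without any control, to 2 without knockout 3 and to 73 without knockout 2. Without knockout 1, all 12 stayed called, and the list had 21 calls.

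**Figure D4:**
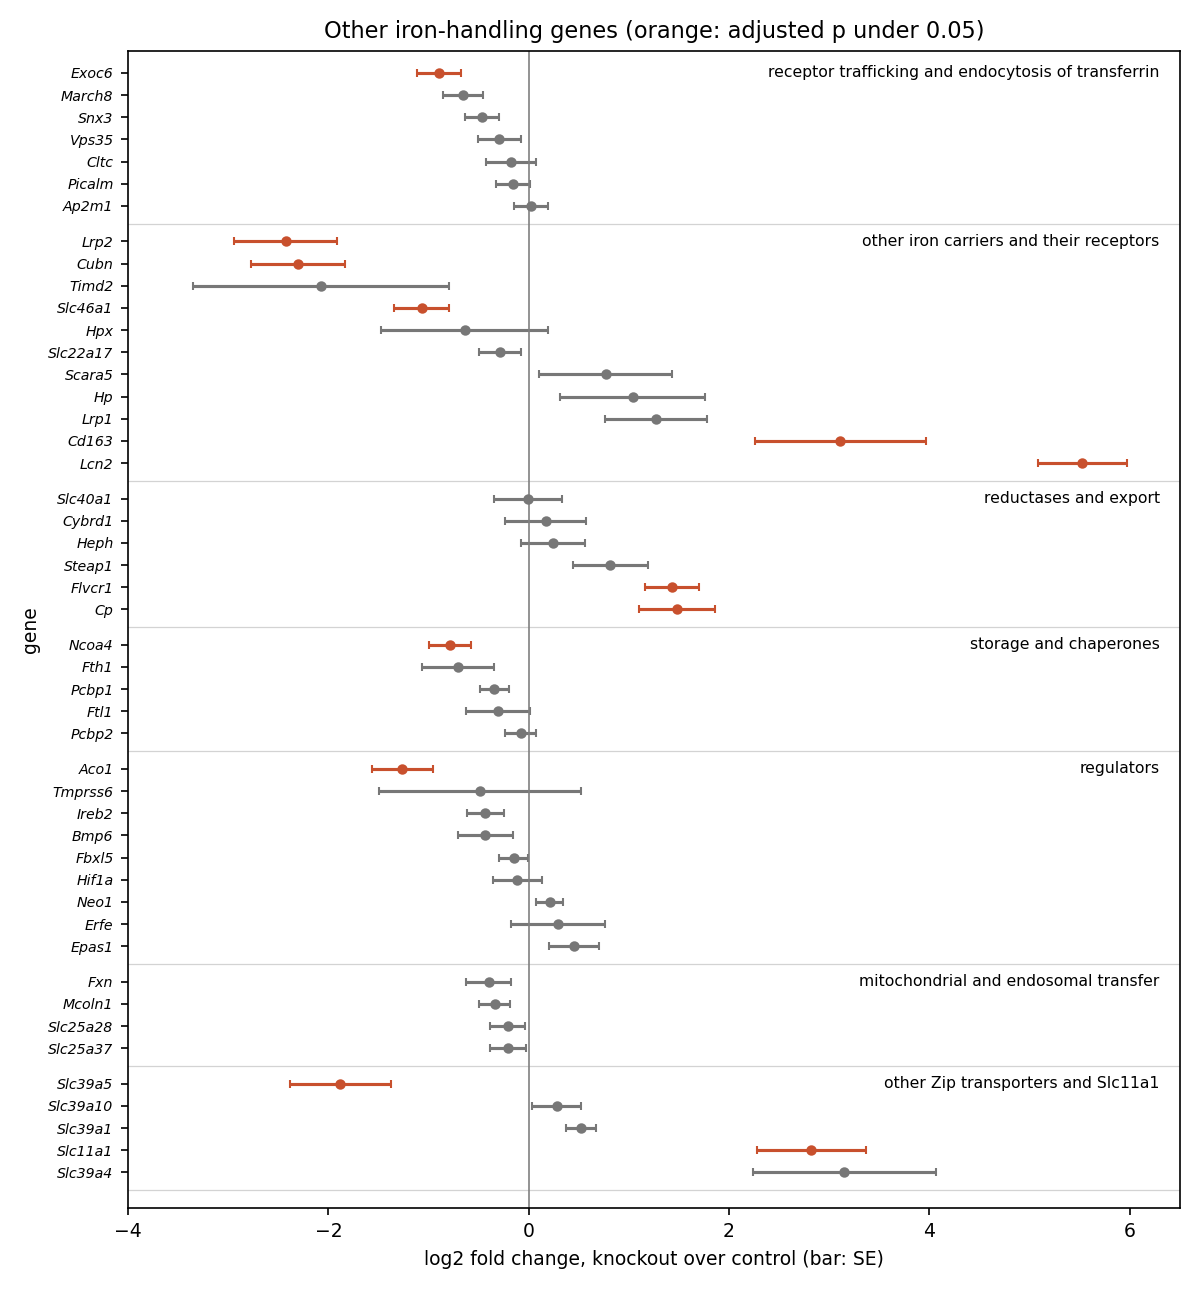
Log2 fold change, knockout over control, of the other iron genes tested, 1 of the 48 left out (points, bars are 1 SE), grouped by function; orange marks an adjusted p under 0.05 in edgeR's quasi-likelihood test. The 12 orange genes include 5 to the right of 0, led by Lcn2 at 5.53, and 7 to the left, led by Lrp2 at -2.42.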

How the data were processed

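Values are raw counts per gene in 1 table per group, deposited by the authors. Per the submitters' processing notes and the study's methods, total RNA was extracted with TRIzol, TruSeq libraries were sequenced, bases were called with CASAVA 1.8.2, reads were trimmed with Trimmomatic, aligned to mm9 with TopHat2 2.0.11, kept where uniquely mapped and counted with HTSeq. The annotation and strand setting of the counting are not given in the sources used here. Unique mapping lowers genes with near-identical copies. Among the longest coding transcripts of all genes, 100.0% of the 100-base words of the 10 members belonged to a single gene name. Pseudogenes and other non-coding copies were not searched, and the second gene named Trf could not be told apart by name.

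Counts were tested with edgeR 4.0.16 (R 4.3.3, limma 3.58.1): filterByExpr with a minimum count of 10 and total of 15, TMM scaling, the quasi-likelihood test over all 6 libraries without covariate, and Benjamini-Hochberg adjustment over 15171 genes, of which 2612 were called (1604 higher, 1008 lower). The SE is the log2 fold change divided by the square root of F. Per-library log2 CPM used a prior count of 2. DESeq2 1.42.0 was an alternative. The test was first tested on simulated data. Replicates differed by 52.88 to 125.5 times sampling noise (chi-square per degree of freedom), so each library counted as 1 sample. Intervals on counts cover counting error only.

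Coordinates and sequences are from GENCODE M1 on mm9, in which 20608 of 24422 symbols matched 1 gene. Tfr2, Flvcr1 and Erfe were found through RefSeq synonyms (Trfr2, Mfsd7b and Fam132b). The members and lists were chosen with earlier results of these data known. All members are named, other iron genes mainly where called, and those not called that are named were chosen after their values were seen. The 5 genes most like Tfrc were named by correlation. For 1 listed iron gene, its own values are not reported here.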

Additional observations from a re-analysis of the deposited data

How the results depend on the processing

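Over 16 alternatives, 9 of 10 uptake genes kept their direction wherever they were tested. Tfrc reversed in 5: its log2 fold change was 0.14 with library size alone, 0.15 with the ratio of Xist to Y-linked counts as a covariate, 0.17 without control 2, 0.06 without knockout 2 and 0.29 without knockout 3. The range over left-out libraries was -0.96 to 0.29. The cause was not tested. Calls among members numbered 3 with library size alone and 4 with DESeq2's Wald test, and 0 to 4 when a library was left out, the 4 being without knockout 1. All genes called numbered 4894 with the Wald test and 0 to 5332 when a library was left out (0 without any 1 control, 5332, 73 and 2 without knockouts 1, 2 and 3). Other iron genes called numbered 19 with the Wald test and 0 to 21 when a library was left out. With the replicate block, 0 genes, 0 members and 0 other iron genes were called, against 5432 genes and 4 members at an unadjusted p under 0.05. With the Xist to Y covariate the counts were also 0, against 4221 genes and 3 members at an unadjusted p under 0.05. The deviations of same-numbered samples from their group means had correlations of -0.13, 0.01 and 0.22. These cannot decide whether libraries shared a litter, because the deviations of 3 libraries from their own mean are not independent. Library size alone made 81.8% of the 3647 calls higher, against 61.4%. With 3 libraries a group, a difference of 2-fold in a gene as variable as Tfrc could not be resolved.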

Other observations

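Timd2, a receptor for ferritin on mouse tubule cells, was at 88.7 CPM in control 2 and at 1.61 to 13.1 CPM in the other 5 libraries, so its log2 fold change of -2.07 (SE 1.28, adjusted p 0.268 in edgeR's quasi-likelihood test) rested on the library with Y-linked counts. The zinc transporter Slc39a4 was at 0.85, 1.47 and 0.66 CPM in controls and at 3.58, 20.7 and 2.22 CPM in knockouts, and just missed the threshold (log2 fold change 3.15, SE 0.91, adjusted p 0.0558). Slc39a1 was at 93.4, 96.6 and 83.9 CPM against 117, 152 and 124 CPM (0.52, SE 0.15, adjusted p 0.0559). All 10 globin rows were listed at 0 in every library, and the erythroid gene Alas2 was at 10.2 to 16.2 CPM in controls and 7.41 to 15.5 CPM in knockouts.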
